A study of Danio rerio with 12 samples.

Results

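The genes of de novo fatty acid synthesis and of fatty acid desaturation and elongation were followed across 4 groups of zebrafish larvae exposed to tributyltin chloride (TBT). They were chosen by name, with earlier results of these data known. The 10 gene names (scd, scdb, fasn, acaca, acacb, acly, fads2, elovl2, elovl5 and elovl6) were looked up among the 26816 genes of the deposited values. Of the 10, 9 were found, each with 1 gene ID. The name acly was not listed. RNA had been sequenced from whole wild-type larvae at 5 days post fertilization (dpf), as eleutheroembryos, the stage after hatching that still lives on yolk. Water contained TBT at 3, 30 or 100 nM from 2 to 5 dpf, or no TBT (control), and every group, the control included, received dimethyl sulfoxide as the solvent at 0.2% (v/v). Each group had 3 libraries, and 10 larvae were pooled for each. Separate clutches or exposures are not stated for the pools, so the p-values measure their spread alone, part of which may be technical.

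Fatty acids are built in the cytosol from acetyl-CoA, which ATP citrate lyase (acly) makes from citrate. Acetyl-CoA carboxylases (acaca, acacb) turn it into malonyl-CoA, and fatty acid synthase (fasn) joins these units into palmitate. Stearoyl-CoA desaturases (scd, scdb) put a first double bond into saturated chains, fads2 adds further double bonds to polyunsaturated chains, and the elovl enzymes lengthen the chains, elovl6 mostly the saturated and monounsaturated ones and elovl2 and elovl5 the polyunsaturated ones. In mammals, SREBP-1c (encoded by srebf1) and the liver X receptor, a partner of the retinoid X receptor (RXR), switch on several of these genes in liver. TBT is an organotin biocide known as a ligand of RXR.

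The values were normalised counts, scaled between libraries by the authors and rounded to whole numbers, and all fold changes were computed as differences of log2(value + 1). Summed over genes, the values of a library came to between 26515823 (control replicate 2) and 35772586 (100 nM replicate 1). All 9 genes passed the filter on low values (at least 10 in at least 3 libraries), as did 22404 genes in all. Tests were limma's linear model on all 12 libraries, with p-values adjusted by the Benjamini-Hochberg method over the 22404 genes, and a gene was called at an adjusted p under 0.05. When every library was scaled to the same total, the median log2 fold change over all tested genes at 100 nM went from −0.02 to −0.205, and the share of higher genes among those called from 54.9% to 28.2%. At 30 nM that share went from 71.4% to 50.0%, and between 100 and 30 nM from 57.3% to 35.6%. With TMM scaling (trimmed mean of M values) the median at 100 nM was −0.0165. The share of higher genes was then 55.6% at 100 nM, 71.2% at 30 nM and 57.4% between 100 and 30 nM. Under TMM scaling each gene list described below kept its calls at 100 nM. Which scaling is nearer to the larvae was not tested.

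The genes did not move as a block. At 30 nM, scd, fasn and fads2 rose, 3 of the 9 genes. Of all tested genes 0.531% were called at 30 nM, 0.379% higher and 0.152% lower. At 100 nM, scd and fasn rose, 2 of 9. Of all tested genes 17.5% were called there, 9.63% higher and 7.9% lower. None of the 9 was called lower against the control at any concentration (limma, adjusted p), although elovl2 and elovl6 had lower values at 100 nM with an unadjusted p under 0.05. Of all 22404 tested genes, 7013 had such an unadjusted p at 100 nM, in either direction. At 3 nM none was called in either direction, against 0.0402% of all tested genes (0.00446% higher, 0.0357% lower). Of the 9, scd (unadjusted p = 0.0150) and fads2 (0.0107) were the 2 genes with an unadjusted p under 0.05, beside 2385 of all 22404 tested genes. The median log2 fold change of the 9 genes was 0.08 at 3 nM, 0.28 at 30 nM and 0.06 at 100 nM. All tested genes had medians of 0.01, −0.0038 and −0.02. Scaled to equal totals, the median of the 9 genes at 100 nM was −0.12. The 3 comparisons share the control libraries. A joint test of the 4 groups called scd, fasn, fads2 and elovl2, 4 of 9, against 12.9% of all tested genes.

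**Figure D1:**
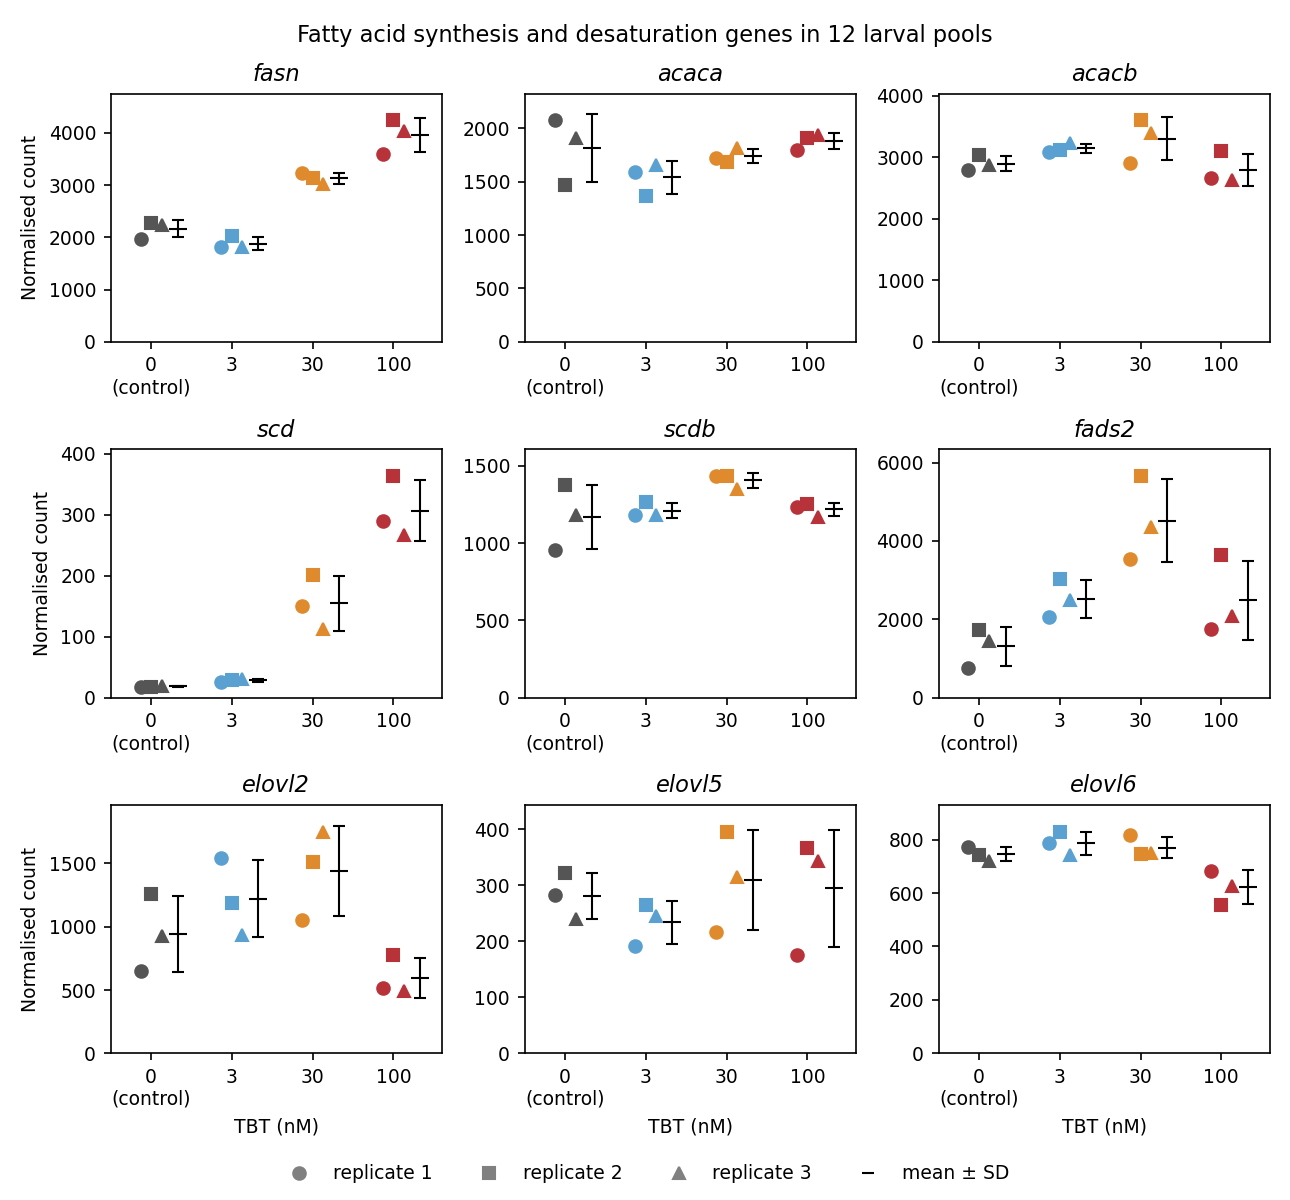
Normalised counts of the 9 genes (y axis, from 0) in each of the 12 pools by TBT concentration (x axis, nM), with the replicate number as the symbol and the mean ± SD (n = 3) in black. scd climbs from 18 to 19 in the controls to 267 to 364 at 100 nM, fads2 is highest at 30 nM, and elovl2 is lowest at 100 nM.

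In the first steps of synthesis fasn rose at 30 and 100 nM, and neither carboxylase gene was called. fasn (ENSDARG00000087657) had 1975, 2277 and 2230 normalised counts in the controls, 1817, 2018 and 1810 at 3 nM, 3223, 3143 and 3021 at 30 nM and 3601, 4244 and 4031 at 100 nM. Every library at 30 and at 100 nM lay above every control library, and every one at 100 nM above every one at 30 nM, while the 3 nM and control values overlapped. fasn rose 1.83-fold at 100 nM (log2 fold change 0.87 ± 0.09 SE, adjusted p = 1.71e-04) and 1.45-fold at 30 nM (0.54 ± 0.09 SE, adjusted p = 0.0338). At 3 nM its log2 fold change was −0.20, with a 95% interval from −0.41 to 0.01 (adjusted p = 0.473). The call at 100 nM held when any 1 of the 12 libraries was left out (adjusted p between 3.67e-04 and 0.00125). At 30 nM, each of 9 of the 12 libraries ended the call when it was omitted (adjusted p up to 0.151). So did equal totals (0.385), a fit of the 2 groups alone (0.167) and the absence of a variance trend (0.0733).

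acaca (ENSDARG00000078512), the gene of the carboxylase that feeds synthesis, had 2075, 1465 and 1907 in the controls and 1797, 1904 and 1937 at 100 nM, within the control range. Its values were 1593, 1365 and 1659 at 3 nM and 1719, 1680 and 1811 at 30 nM, so that no group separated from the control. The log2 fold change of acaca at 100 nM was 0.06 with a 95% interval from −0.21 to 0.34 (adjusted p = 0.768), which leaves out the size of change seen for fasn. acacb (ENSDARG00000061994), whose product is the carboxylase of the mitochondrial surface that in mammals restrains fatty acid oxidation, ranged from 2633 to 3601 over the 12 libraries. Its log2 fold changes were 0.12 at 3 nM, 0.19 at 30 nM and −0.05 at 100 nM, and none was called. Between 100 and 30 nM acacb differed by −0.24 (95% interval −0.46 to −0.02, adjusted p = 0.186).

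Under other names the files list a pair of ATP citrate lyase genes, which the lookup by name does not include and which were added after the members' values had been seen. aclya had 2924 ± 305 normalised counts in the control and 2512 ± 168 at 100 nM (SD, n = 3 each), with a log2 fold change of −0.22 and an adjusted p of 0.208. aclyb had 148 ± 64.3 and 118 ± 10.4 (adjusted p = 0.622). Neither was called.

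The stearoyl-CoA desaturase genes differed from each other in their response. scd (ENSDARG00000033662) had 18, 18 and 19 normalised counts in the controls, 26, 29 and 30 at 3 nM, 151, 201 and 112 at 30 nM and 290, 364 and 267 at 100 nM. No group overlapped with the next, so that the order of the 4 groups was the order of the concentrations. At 100 nM scd was 15.8-fold higher than in the control (log2 fold change 3.98, 95% interval 3.52 to 4.44, adjusted p = 4.13e-06), the 9th largest rise among the 22404 genes. At 30 nM it was 7.83-fold higher (2.97, 95% interval 2.51 to 3.43, adjusted p = 9.42e-05), and between 30 and 100 nM it rose a further 2.02-fold (1.01 ± 0.21 SE, adjusted p = 0.0122). The 3 nM value was 0.60 above the control on the log2 scale (95% interval 0.14 to 1.06), which did not pass the threshold (adjusted p = 0.407). The control values are low, and the pseudocount shrinks changes of low values. The calls of scd at 30 and 100 nM against the control held in all 21 alternatives (9 settings and 12 libraries left out in turn). The step from 30 to 100 nM was not called with only those 2 groups in the fit (adjusted p = 0.0522).

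scdb (ENSDARG00000030265), the other stearoyl-CoA desaturase gene, had 958, 1375 and 1180 in the controls, 1182, 1269 and 1182 at 3 nM, 1436, 1434 and 1352 at 30 nM and 1236, 1252 and 1170 at 100 nM. Its values at 3 and at 100 nM lay inside the control range, and those at 30 nM overlapped with it. The log2 fold change of scdb at 100 nM was 0.07 (95% interval −0.18 to 0.33, adjusted p = 0.712), or −0.11 with equal totals. At 30 nM it was 0.28 (95% interval 0.02 to 0.54, adjusted p = 0.460). The upper ends of both intervals lie below the lower ends of those of scd. Reads of paralogous genes can be split between copies by the counting, and the sources used here do not say how reads that fit both were treated.

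fads2 (ENSDARG00000019532), the front-end desaturase of the polyunsaturated series, was highest at 30 nM and not at 100 nM. It had 765, 1726 and 1443 normalised counts in the controls, 2057, 3028 and 2496 at 3 nM, 3546, 5662 and 4350 at 30 nM and 1759, 3641 and 2071 at 100 nM. All 3 exposed groups lay above the control range, and those at 30 and 100 nM overlapped by a single library, 100 nM replicate 2. fads2 rose 3.58-fold at 30 nM (log2 fold change 1.84 ± 0.33 SE, 95% interval 1.11 to 2.56, adjusted p = 0.0370), the 40th largest rise at that concentration. The values were 1.01 above the control at 3 nM (95% interval 0.28 to 1.73, adjusted p = 0.397) and 0.93 at 100 nM (0.21 to 1.66, adjusted p = 0.0760), neither of them called. From 30 to 100 nM the log2 difference was −0.91 (95% interval −1.63 to −0.18, adjusted p = 0.121).

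The spread of fads2 between pools was wide, with a coefficient of variation of 37.7% among controls and, in order of concentration, of 19.2%, 23.6% and 40.5% among exposed pools. In each of the 4 groups replicate 1 had the lowest fads2 value and replicate 2 the highest. The call at 30 nM ended when any 1 of 9 libraries was omitted (adjusted p up to 0.160), and with equal totals (0.121), only the 2 groups in the fit (0.154) or no variance trend (0.0648). It held in 6 of the 9 other settings, with an adjusted p as low as 1.35e-04. At 100 nM a call appeared without control replicate 2 (adjusted p = 0.0411), and between 100 and 30 nM without 100 nM replicate 2 (0.0419). With the replicate number as a block, fads2 was also called at 3 nM (adjusted p = 0.0168), at 100 nM (6.96e-04) and between 100 and 30 nM (0.00149). The labels give no shared batch for that number.

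**Figure D2:**
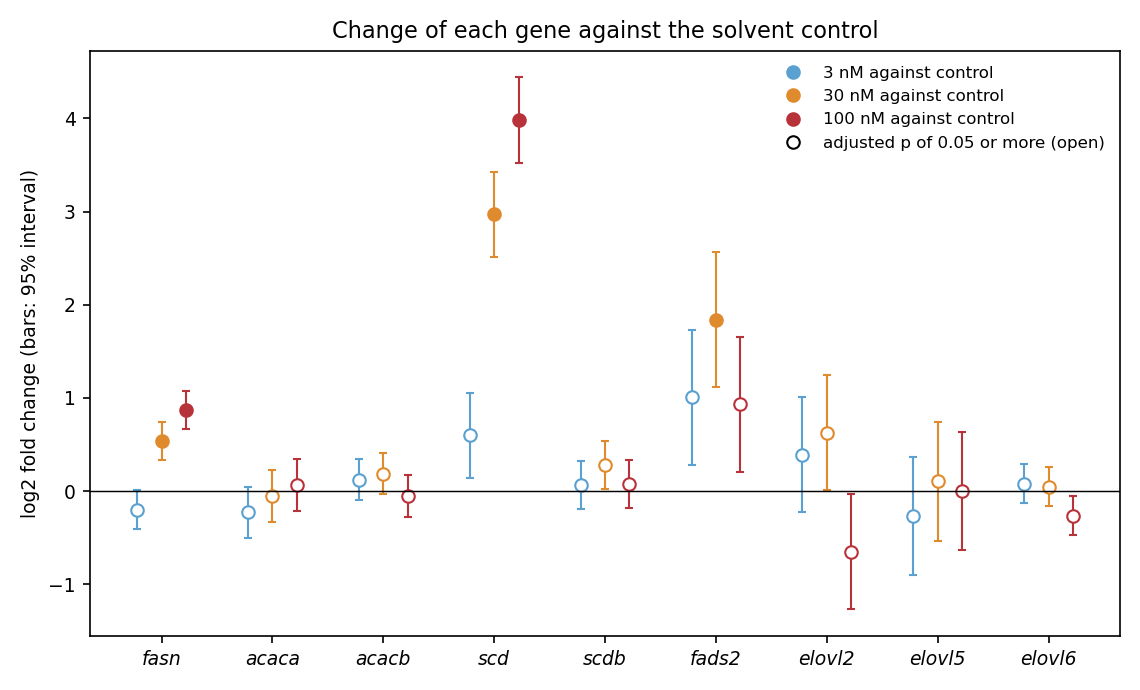
Log2 fold change of each gene against the control (y axis) at 3, 30 and 100 nM, with 95% intervals from limma as bars. Filled points passed the adjusted threshold, which were scd and fasn at 30 and 100 nM and fads2 at 30 nM.

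Among the elongase genes, elovl2 was the one called between exposed groups. elovl2 (ENSDARG00000045414), which lengthens the longest polyunsaturated chains on the way to docosahexaenoic acid, had 653, 1255 and 926 normalised counts in the controls, 1539, 1184 and 935 at 3 nM, 1052, 1513 and 1751 at 30 nM and 513, 775 and 495 at 100 nM. Every library at 100 nM lay below every library at 3 and at 30 nM, while control replicate 1 fell within the range at 100 nM. elovl2 fell by 1.27 on the log2 scale from 30 to 100 nM (SE 0.28, adjusted p = 0.0167), which is 2.42-fold lower. Against the control the log2 fold changes of elovl2 were 0.39 at 3 nM, 0.63 at 30 nM and −0.65 at 100 nM (95% interval at 100 nM −1.27 to −0.03, adjusted p = 0.141), and none was called. The call between 30 and 100 nM ended without 30 nM replicate 2 (adjusted p = 0.0627), 30 nM replicate 3 (0.0766), 100 nM replicate 1 (0.0605) or 100 nM replicate 3 (0.0618). Without control replicate 1 the difference at 100 nM against the control was called (−0.89, adjusted p = 0.0461).

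elovl6 (ENSDARG00000004402), the elongase that turns palmitate into stearate, had 772, 744 and 720 in the controls, 787, 830 and 744 at 3 nM, 816, 745 and 749 at 30 nM and 683, 557 and 625 at 100 nM. Its 100 nM values lay below all 9 other libraries. The difference was small and did not pass the threshold against the control (log2 fold change −0.27, 95% interval −0.48 to −0.06, adjusted p = 0.0793) or against 30 nM (−0.31, adjusted p = 0.0660). With equal totals it was called in both (−0.45, adjusted p = 0.0108, and −0.43, adjusted p = 0.0235). It was also called in both, at unchanged size, with the replicate number as a block (adjusted p = 0.0297 and 0.0224). elovl5 (ENSDARG00000004979), which lengthens polyunsaturated chains, ranged from 175 to 396 over the 12 libraries, and the groups overlapped throughout. Its log2 fold change at 100 nM was 0.0041 with a 95% interval from −0.63 to 0.64, so that changes within this interval are not left out. A somewhat larger change could also have missed the adjusted threshold. In each of the 4 groups replicate 2 had the highest elovl5 value.

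Between 100 and 30 nM, scd and fasn rose further (fasn 1.26-fold, log2 0.34 ± 0.09 SE, adjusted p = 0.0479) and elovl2 fell, 3 of the 9 genes, against 9.23% of all tested genes (5.29% higher, 3.95% lower). The call of fasn ended when any 1 of 9 libraries was omitted (adjusted p up to 0.162) and with equal totals (0.437), no variance trend (0.0773), only those 2 groups (0.117), no filter on low values (0.0547) or TMM scaling (0.0508). fads2, acacb, elovl6, scdb and elovl5 had lower values at 100 than at 30 nM without a call, with log2 differences from −0.91 to −0.10, and acaca differed by 0.11. In terms of ranges, 5 of the 9 genes did not overlap between 30 and 100 nM (2 above, 3 below), where 27.1% of all tested genes did not. Against the control, 4 of 9 did not overlap at 100 nM (27.4% of all tested genes), 3 at 30 nM (14.3%) and 3 at 3 nM (15.8%). At 3 nM these were scd, fads2 and acacb.

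The pattern over the 12 libraries was compared with that of 14055 tested genes that have a gene symbol and a mean of at least 100, by Pearson's r of log2(value + 1), as a description. Most like scd were lcat (r = 0.975), which encodes a cholesterol acyltransferase of plasma lipoproteins, eepd1 (0.975), acp5b (0.973), an acid phosphatase gene, soat2 (0.963), which encodes a sterol O-acyltransferase, and opn1lw1 (0.961), a red cone opsin gene with near-identical copies. eepd1 had 300, 311 and 295 normalised counts in the controls and 1203, 1105 and 1217 at 100 nM, with 481, 362 and 424 at 3 nM and 794, 787 and 810 at 30 nM. Like scd, eepd1 kept the 4 groups apart in the order of the concentrations. In lcat, acp5b, soat2 and opn1lw1 neighbouring groups overlapped.

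Most like fads2 were rgn (r = 0.949), the gene of regucalcin, fabp1b.1 (0.938), which encodes a fatty acid binding protein of the liver type, flj13639 (0.919), abcd3a (0.916), a peroxisomal transporter gene, and cda (0.909), the gene of cytidine deaminase. The mean of fabp1b.1 was highest at 30 nM, too, at 20610 ± 1345 normalised counts, beside 10460 ± 1798 for the control pools, 14360 ± 1193 for 3 nM and 16320 ± 2776 for 100 nM (SD, n = 3 each). Most like elovl6 were pold3 (r = 0.961), a DNA polymerase delta subunit gene, ccne2 (0.955), the gene of cyclin E2, ncaph2 (0.952), a condensin subunit gene, khdrbs1a (0.947) and cnot11 (0.946). All 5 had their lowest group mean at 100 nM, for ccne2 187 ± 30.8 against 287 ± 18.9 in the control. A shared high or low group is what the choice by r selects for, here and for fabp1b.1, and is no separate result.

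**Figure D3:**
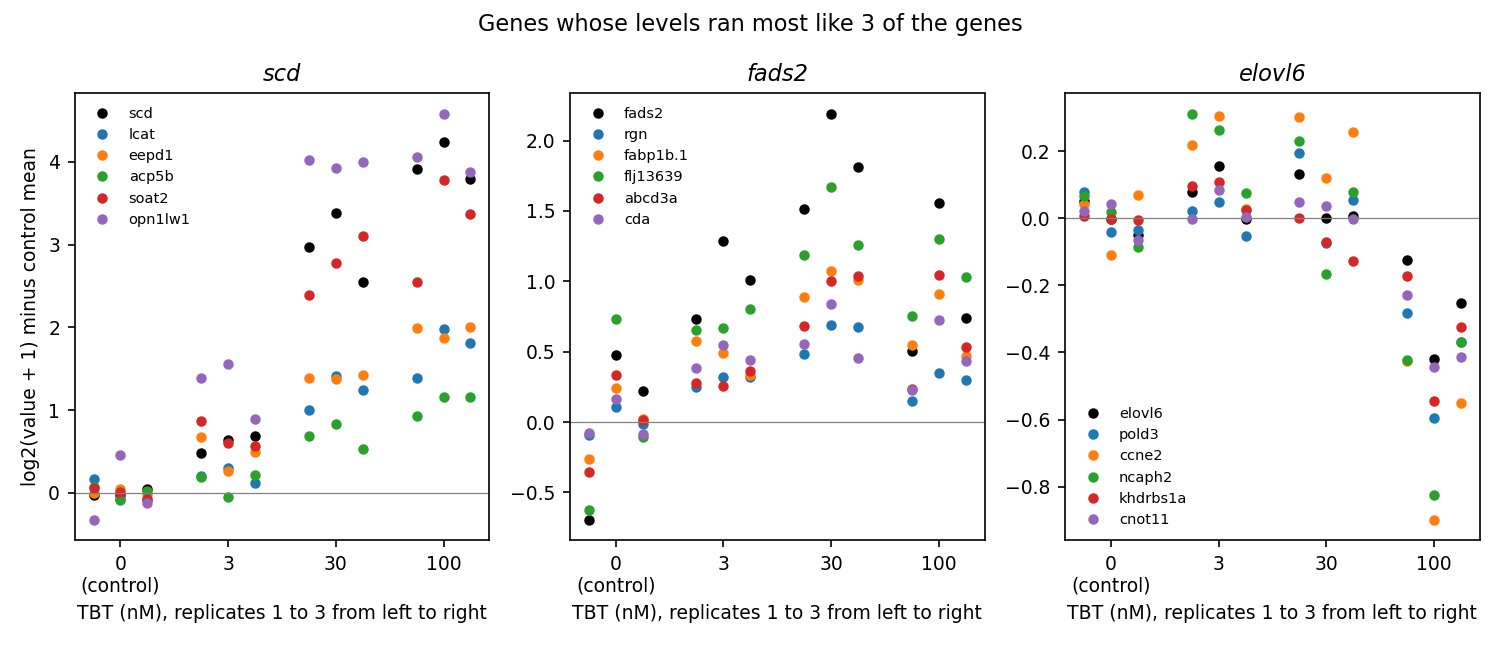
Log2(value + 1) minus the control mean (y axis) in each pool, by TBT concentration with replicates 1 to 3 from left to right (x axis), for scd, fads2 and elovl6 (black circles) and the 5 genes most correlated with each (coloured circles, 1 per pool). The scd panel climbs with concentration, the fads2 panel is highest at 30 nM, and the elovl6 panel drops at 100 nM.

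Around these enzymes, 5 of 16 tested regulator genes rose and 1 fell at 100 nM, with a median log2 fold change of 0.13, beside 9.63% higher and 7.9% lower among all tested genes, and none was called at 30 nM. srebf1 had 887, 924 and 1031 normalised counts in the controls, 707, 810 and 803 at 3 nM, 1393, 1560 and 1486 at 30 nM and 1517, 2898 and 1672 at 100 nM. The groups at 30 and 100 nM lay above the control, and that at 3 nM below it. srebf1 rose 2.06-fold at 100 nM (log2 1.04 ± 0.20 SE, adjusted p = 0.00437), and the call ended in a fit of the 2 groups alone (0.0625). mid1ip1b, whose mouse relative promotes the assembly of acetyl-CoA carboxylase into filaments, rose 2.52-fold (log2 1.33 ± 0.19 SE, adjusted p = 8.45e-04), from 918, 1222 and 1146 in the controls to 3336, 2906 and 2128. Its paralogs in the list were not called, mid1ip1a with 1931 ± 987 in the control and 1805 ± 541 at 100 nM, and mid1ip1l with 949 ± 163 and 1351 ± 225 (SD, n = 3 each).

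nr1h3, the gene of the liver X receptor, rose by 0.51 on the log2 scale (adjusted p = 0.00537), a call that ended with equal totals (0.155) and in a fit of the 2 groups alone (0.0690). Of the genes of the sterol-sensing branch, insig2 rose (0.51), while srebf2 (0.03, adjusted p = 0.872), scap (0.02, 0.923) and insig1 (0.21, 0.427) were not called. The call of insig2 ended with equal totals (0.106) and in a fit of the 2 groups alone (0.0837). The remaining calls were a rise of mlx (0.42) and a fall of usf1 (−0.41), which each ended on omitting any 1 of 4 libraries (adjusted p up to 0.113 and 0.0761) and in a fit of the 2 groups alone (0.159 and 0.147), for mlx also with equal totals (0.104). With equal totals srebf1, mid1ip1b and usf1 were the calls left in the list, its median was −0.06, and srebf2 and scap had the opposite sign (−0.16 and −0.17). Among all 22404 tested genes 1127 were then called higher and 2865 lower.

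A list made mainly of genes that supply precursors and NADPH went both ways at 100 nM, 5 of 16 higher and 3 lower. Its median was −0.10 or, with equal totals, −0.28 (1 higher, 3 lower). The list also held mcat, mecr and olah, which supply neither, and mecr was among the 5 higher. In the deposited scaling 9.63% of all tested genes were called higher at 100 nM and 7.9% lower. With equal totals 1127 of all 22404 tested genes were called higher and 2865 lower. Among the rises was pgd, a dehydrogenase gene of the pentose phosphate pathway (log2 fold change 0.61, adjusted p = 0.0125). The call of pgd ended without control replicate 3 (adjusted p = 0.0554), with only the 2 groups (0.0923) and with equal totals (0.147). pdha1b, which encodes a pyruvate dehydrogenase subunit, fell by 2.60 on the log2 scale, from 93 ± 37.8 to 14 ± 4.0 (SD, n = 3, adjusted p = 2.63e-04). Its paralog pdha1a had far higher values, 6312 ± 765 in the control and 7398 ± 647 at 100 nM, and was not called. me1, the cytosolic malic enzyme gene, was not called against the control (−0.17, adjusted p = 0.435) and fell by 0.59 from 30 to 100 nM (adjusted p = 0.0230), a call that ended with equal totals. It was chosen after its values were seen.

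Of 21 other elongase, elongation cycle and desaturase electron transport genes, 1 rose and 3 fell at 100 nM, with a median of −0.08, so that the 4 called of 21 are near the 17.5% called among all tested genes. elovl8a, an elongase gene, had 69, 111 and 84 normalised counts in the controls, 41, 62 and 57 at 3 nM, 39, 35 and 25 at 30 nM and 19, 18 and 17 at 100 nM. It fell by 2.20 on the log2 scale at 100 nM (SE 0.24, adjusted p = 1.99e-04), with no overlap between the control and any exposed group, and by 1.38 at 30 nM, the 1 call of the list at that concentration, which ended with equal totals. elovl1b, an elongase gene of saturated very long chains, rose by 0.45 (adjusted p = 0.00518, or 0.0800 with only the 2 groups). tecra, a reductase gene of the elongation cycle, fell by 0.61 (adjusted p = 0.0210), a call that was lost on omitting control replicate 2 (0.0628) or 3 (0.0762), on omitting 100 nM replicate 2 (0.0511), or in a fit of the 2 groups alone (0.142). With equal totals the list had 1 rise and 4 falls, beside 1127 rises and 2865 falls among all 22404 tested genes.

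Of 15 genes of glycerolipid synthesis, which esterifies the fatty acids made, 3 rose and 2 fell at 100 nM, with a median of −0.0012, beside 17.5% called among all tested genes, and none was called at 30 nM. The falls were the larger changes, dgat2, whose product makes triglyceride, with 2357 ± 933 normalised counts among controls and 781 ± 411 at 100 nM (SD, n = 3, a log2 difference of −1.67, adjusted p = 0.0336), and mogat2, a monoacylglycerol acyltransferase gene (−1.10, adjusted p = 0.0416, control and 100 nM values overlapping). Both calls held with equal totals and ended in a fit of the 2 groups alone (0.0941 and 0.162). They also ended when any 1 of 5 libraries was omitted for dgat2 (adjusted p up to 0.121) or any 1 of 9 for mogat2 (up to 0.149), and for mogat2 with no variance trend (0.0566). The acyltransferase genes agpat3 (0.48, adjusted p = 0.00738), mogat3a (0.42, adjusted p = 0.0210) and gpat4 (0.29, adjusted p = 0.0336) rose. All of these 3 calls ended with equal totals (adjusted p = 0.147, 0.272 and 0.595), which left 0 rises and 2 falls, and in a fit of the 2 groups alone (0.0930, 0.136 and 0.173). Among all 22404 tested genes, equal totals gave 1127 rises and 2865 falls. Leaving out single libraries, mogat3a lost its call without control replicate 2 (0.0580) or 100 nM replicate 3 (0.0727), and gpat4 without 8 of the 12 (up to 0.0974) and with no variance trend (0.0564).

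**Figure D4:**
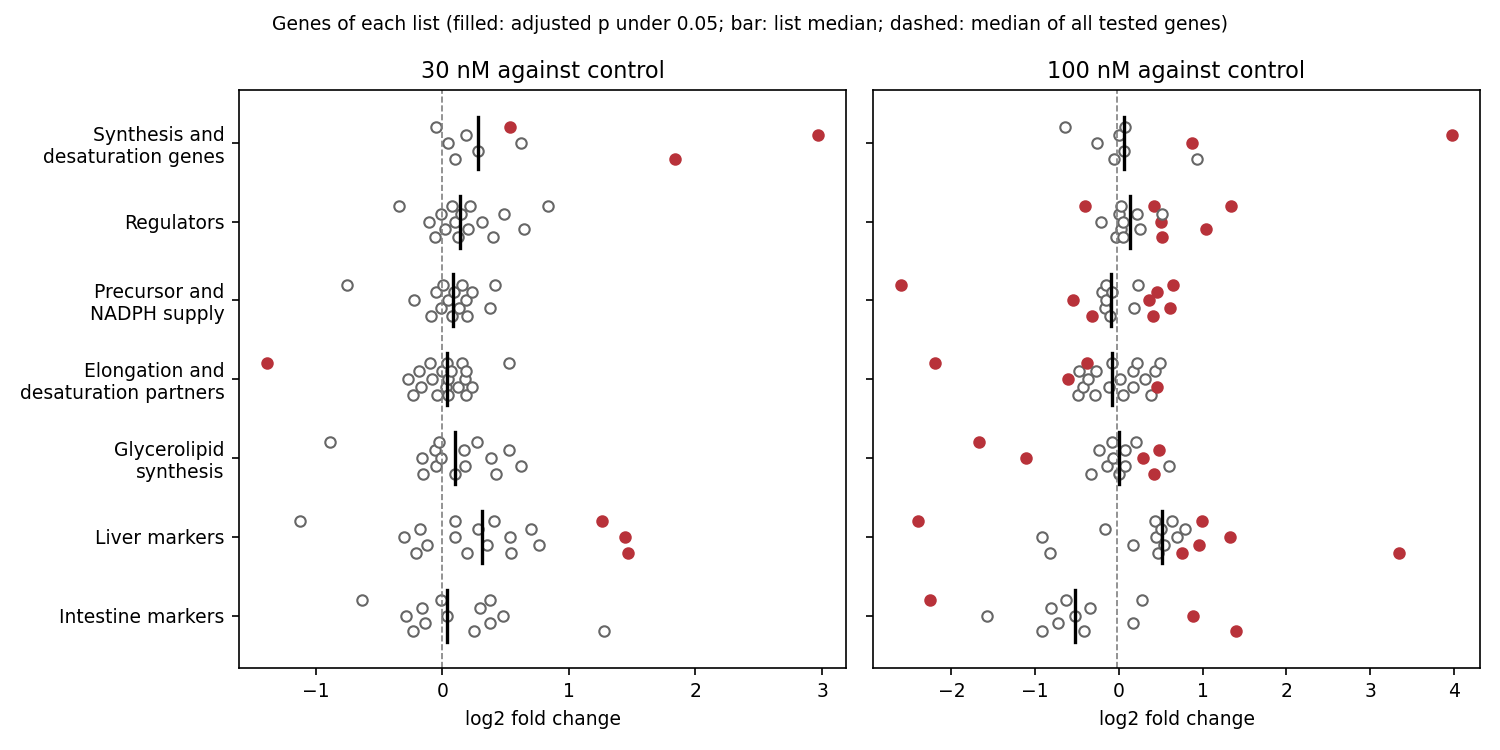
Log2 fold change (x axis) at 30 nM (left) and 100 nM (right) of every tested gene in 7 lists (rows), filled where the adjusted p was under 0.05, with the list median as a black bar and the median of all tested genes as a dashed line. At 100 nM the regulators had 5 rises and 1 fall, and the liver markers had the highest list median, 0.52.

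RNA came from whole larvae, so that fewer cells of a type and less RNA per cell cannot be told apart. Of the marker genes found for liver, intestine, adipocytes, exocrine pancreas, neurons, skeletal muscle and glia, none was at 0 in all libraries. The summed level of the liver markers was 194361 to 264025 in the controls, 238915 to 281785 at 3 nM, 281630 to 343136 at 30 nM and 254590 to 338165 at 100 nM. Much of this sum came from apoa2 (46178 to 104740 in the controls, 70443 to 105297 at 30 nM) and rbp4 (38455 to 85537 and 69828 to 92614). Neither was called at 30 or 100 nM, so the sum does not stand for the list as a whole. Of the 18 liver markers, 5 rose and 1 fell at 100 nM and 3 rose at 30 nM, with medians of 0.52 and 0.32, or 0.33 (4 higher, 2 lower) and 0.25 (0 called) with equal totals. In the deposited scaling 9.63% of all tested genes were called higher and 7.9% lower at 100 nM, and 0.379% and 0.152% at 30 nM. With equal totals 1127 of all 22404 tested genes were called higher and 2865 lower at 100 nM, and 31 and 31 at 30 nM.

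fabp10a, the liver fatty acid binding protein gene, had 6376, 10096 and 9317 normalised counts in the controls, 12691, 13337 and 12205 at 3 nM, 19917, 26472 and 24007 at 30 nM and 17092, 25851 and 21641 at 100 nM. Its log2 fold changes were 0.59, 1.47 and 1.33, beside 1.01, 1.84 and 0.93 for fads2 and 0.60, 2.97 and 3.98 for scd. The other liver markers named by the lowest p were ambp (0.96) and hpx (3.34, from 10.3 ± 5.03 to 118 ± 70.7). The list did not move one way: ahsg1, a fetuin gene, fell by 2.39 on the log2 scale, from 86.3 ± 22.7 to 15.3 ± 2.52 (SD, n = 3, adjusted p = 0.00161), a call that held under all 21 alternatives. fetub, another fetuin gene, had a log2 fold change of −0.92 (adjusted p = 0.0520, or 0.0474 with equal totals). Transferrin gene tfa (0.79, adjusted p = 0.159) and the apolipoprotein gene apoa2 (0.44, adjusted p = 0.409) were not called. The part of liver RNA in the changes of scd, fasn and fads2 was not tested.

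Intestine markers summed to 46973 to 119661 in the controls and 38037 to 70630 at 100 nM. Of 13, 2 rose (fabp6, 1.40, and apoa4a, 0.89) and 1 fell (chia.1, −2.25), with a median of −0.53 at 100 nM and 0.04 at 30 nM. With equal totals the medians were −0.71 and −0.03, and at 100 nM 1 was called higher (fabp6) and 2 lower (chia.1 and apoa4b.1). Beside this list and the adipocyte and pancreas lists below stand 9.63% called higher and 7.9% lower among all tested genes at 100 nM. With equal totals 1127 of all 22404 tested genes were called higher there and 2865 lower. The call of apoa4a ended without 100 nM replicate 3 (adjusted p = 0.0562), with equal totals (0.0681) and with only the 2 groups (0.0618), as did those of fabp6 (0.0744) and chia.1 (0.0870) with only the 2 groups. Of 7 adipocyte markers 1 rose, fabp11a (0.61, or an adjusted p of 0.0818 with equal totals and 0.0697 with only the 2 groups), and the perilipin gene plin1 (17.0 ± 7.21 in the control) and the adiponectin gene adipoqa (16.3 ± 4.93) had low values. Exocrine pancreas markers summed to 138551, 179347 and 224325 in the controls and 36478, 142241 and 91463 at 100 nM. The sum of 100 nM replicate 2 thus lay inside the control range, and that of replicate 1 was the lowest. Of the 10 markers 5 fell at 100 nM, with a list median of −1.54. The log2 fold changes were −2.35 for amy2a, −2.26 for ela2, −1.72 for ela2l, −1.69 for ela3l and −1.31 for prss59.1. The last 3 had the lowest p, and their calls each ended without control replicate 3 (adjusted p between 0.0816 and 0.0900) and with only the 2 groups (0.0937 to 0.123). Calls also ended without 100 nM replicate 1 for prss59.1 (0.0537) and ela2l (0.0712), and without 100 nM replicate 3 for ela2l (0.0656) and ela3l (0.0599). Those of amy2a and ela2 ended without control replicate 2 (0.0734 and 0.0698) or 3 (0.103 and 0.102) and in a fit of the 2 groups alone (up to 0.152), and that of ela2 without 100 nM replicate 3 (0.0587).

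Of 8 glia and myelin markers 3 rose at 100 nM, glula (1.56), plp1b (1.48) and gfap (0.72), beside 9.63% called higher among all tested genes. The list median was 0.42, or 0.23 with equal totals. The list did not move one way: 5 markers were not called, among them slc1a2b, with the lowest log2 fold change of the list (−0.82). The call of gfap ended when any 1 of 10 libraries was omitted (adjusted p up to 0.122), with equal totals (0.166), only the 2 groups (0.165) or no variance trend (0.0507). Of 8 neuron markers and 10 skeletal muscle markers none was called at 100 nM (medians −0.51 and 0.26). With equal totals 2 muscle markers were called lower, as were 2865 of all 22404 tested genes. Whether any of these tissue differences bears on the fatty acid genes was not tested.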

How the data were processed

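RNA-seq was available for 12 libraries of whole larvae, 3 per group. Per the labels' protocols, libraries were strand-specific and poly(A)-selected (500 ng input, 15 PCR cycles) and were read as pairs of 76 nt. Processing tools listed by the submitters' processing notes are DESeq2 1.10.1, RSEM 1.2.28, STAR 2.5.1b and CASAVA, for build GRCz10, without roles or order, and no source used here names the annotation release. Values were deposited as a score (normalised counts by the file headers) and all are whole numbers, so raw counts per library were not recovered and no count model was run. Genes carry no coordinates.

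Log2(value + 1) was fitted with limma 3.58.1 in R 4.3.3 (4 groups, all 12 libraries, eBayes with a variance trend). Pairs of groups and a joint F test were taken from that fit. The method was tested on simulated data, in which the libraries were independent and carried no effect of the replicate number. Alternatives were pseudocounts of 0.5 and 5, no filter, a stricter filter (mean of at least 50), equal totals, TMM scaling (trimmed mean of M values, computed on the deposited values), only the groups compared, the replicate number as a block, no variance trend and leaving out each library.

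The genes and gene lists were chosen with earlier results of these data known. Named were all 9 genes, in each other list the 3 called genes of lowest p at 100 nM, 5 regulators whatever their result (srebf1, srebf2, scap, insig1 and nr1h3; mlxipl, also intended, was not listed under that name), and the 5 most correlated genes for scd, fads2 and elovl6. Further genes named were chosen after their values were seen. One gene that this rule names is not reported here.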

Additional observations from a re-analysis of the deposited data

How the results depend on the processing

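Same-numbered libraries of different groups deviated together in 13 of 18 pairs by a correlation over 0.1 (median 0.371, lowest −0.0202). Among pairs with different numbers 3 of 36 did so (median −0.0862, lowest −0.6032). Of the 12 libraries, 11 correlated best on average with their own number. This contrast is a hint from the data, and the labels give no shared batch. With the replicate number as a block, 4 of the 9 genes were called at 100 nM in place of 2 (fads2, adjusted p = 6.96e-04, and elovl6, 0.0297, added), 1 at 3 nM in place of 0 (fads2, 0.0168), 5 between 100 and 30 nM in place of 3 (fads2, 0.00149, and elovl6, 0.0224, added) and the same number, 3, at 30 nM. Over all genes the block gave 7678 calls at 100 nM (3926 without), 778 at 30 nM (119), 1234 at 3 nM (9), 4540 between 100 and 30 nM (2069) and 7570 in the joint test (2881). The number called among the 9 genes at 30 nM was 1 with equal totals, in a fit of the 2 groups alone and with no variance trend, and that between 100 and 30 nM was 1 with only the 2 groups. Over all genes, fits of only the 2 groups gave 1153, 15, 0 and 1164 calls at 100, 30 and 3 nM and between 100 and 30 nM; equal totals gave 62 at 30 nM and no variance trend 0 at 3 nM. At 3 nM 2385 genes had an unadjusted p under 0.05 in limma's fit of all groups.

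Leaving out single libraries, the number called among the 9 genes ranged from 2 to 3 at 100 nM, 1 to 3 at 30 nM, 0 to 0 at 3 nM, 1 to 3 between 100 and 30 nM and 2 to 4 in the joint test. Over all genes the ranges were 2289 to 4621, 28 to 267, 0 to 33, 1041 to 2492 and 1803 to 3344. The sign of a log2 fold change turned in these runs for acaca (−0.083 to 0.17), elovl5 (−0.19 to 0.34), scdb (−0.064 to 0.20) and scap (−0.094 to 0.10) at 100 nM, acaca (−0.20 to 0.055) and elovl5 (−0.095 to 0.34) at 30 nM, scdb (−0.074 to 0.19) at 3 nM and elovl5 (−0.33 to 0.24) between 100 and 30 nM. Of 432 values of the 9 genes without a library, 387 kept direction and side of the threshold, as did 298 of 324 under the other settings.

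With equal totals the sign turned for acaca (−0.12), elovl5 (−0.18), scdb (−0.11), srebf2 (−0.16) and scap (−0.17) at 100 nM, elovl6 at 30 nM (−0.022), elovl6 (−0.016) and scdb (−0.030) at 3 nM and acaca between 100 and 30 nM (−0.0054), none of them called in either scaling. The causes were not tested. Low values limit scd in the control, and raw depth per library was not recovered.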
